A study of Mus musculus with 7 samples.

Results

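The acinar digestive enzymes are the hydrolases that the exocrine pancreas makes for the gut, and here they were read as RNA in isolated islets. The group was given by 9 gene names (AMY2B, CTRB2, PRSS3, CPA1, CPB1, CEL, PNLIP, CLPS and CTRC), matched to the names of the gene table without regard to case. This found 10 rows of the 34082 in the table, because AMY2B and Amy2b both match the first name. The rows add up 16 transcripts of 14 mouse genes.

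Acinar cells form the bulk of the pancreas and surround the islets. They store digestive enzymes as zymogen granules and release them through the ducts into the intestine, where trypsin activates the other proteases. Islets freed with collagenase are picked by hand from this tissue, and acinar RNA is a well-known companion of islet RNA because the enzymes are among the most abundant transcripts an acinar cell holds. The transcription factor PTF1, built around PTF1A and RBPJL, drives the enzyme genes and reads a bipartite site made of an E-box and a TC box.

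Total RNA of islets from 7 pregnant C57BL/6 mice was sequenced at day 15 of pregnancy, with 1 library for each mouse and the poly(A) fraction as input. Prlr+/- mice (n = 3) lacked an allele of the prolactin receptor in the whole body, carried no Cre and received no tamoxifen. βPrlR+/- mice (n = 4), whose libraries are titled CkoWt, carried a floxed Prlr allele and a tamoxifen-inducible Cre under the Pdx1 promoter, which limits deletion mainly to β-cells, and they had received tamoxifen. The study asked how losing the receptor in β-cells compares with losing it everywhere. Genotype, Cre and tamoxifen differed together between the groups and cannot be told apart, and no wild type library was analysed here. The series' design text calls the conditional deletion homozygous whereas the study's methods and its group name make it heterozygous. All mice had been mated with wild type males at 3 to 4 months of age by the design text (the study's methods give a range that is a month older), and islets were picked by hand and cultured overnight. The labels name the tissue as maternal islet cells, and insulin genes took between 46.1% and 58.9% of all transcripts.

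Values are TPM summed per gene, the number of its transcripts in every 1000000 after correction for transcript length, so levels of different genes can be set side by side. "Scaled TPM" is TPM divided by a size factor per mouse (0.882 to 1.11), the median over genes of the ratio to a typical mouse. The study's methods give the reads of a library only as a range over all of them, and TPM does not carry the reads of a gene, so no counting error is given here and the spread between mice is the error given. In bulk islets, fewer acinar cells and less enzyme RNA per acinar cell cannot be told apart. The row of the targeted gene, PRLR, sums over exons that deletion leaves in place and checks no label. Its level was 38.4 to 55.7 scaled TPM with the conditional deletion and 35.1 to 51.1 with the global deletion (log2 fold change -0.15, SE 0.17, limma adjusted p = 0.9999).

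Several rows carry a name that is not the mouse gene they hold. The row AMY2B was 99.8% to 99.9% mouse Amy2a5, the main pancreatic amylase, with the rest in Amy2a2, Amy2a3 and Amy2a4. Those 3 genes have identical transcripts of 3717 bases in the GENCODE annotation and were each listed at the same 5.31 TPM on average, so reads were not told apart among them. The row CTRB2 held mouse Ctrb1, chymotrypsinogen B. The row PRSS3 held 2 trypsinogens, Try4 with 60.8% of the row and Try5 with 39.2%, whose transcripts are 97.1% identical over 801 bases. The mouse gene Prss3 itself was counted in another row, with 111 TPM on average, and is not a member here. The row CTRC held Ctrc, chymotrypsin C, which RefSeq lists as a transcribed pseudogene in the mouse.

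The 250 bases before the start of each gene were read from RefSeq on GRCm38.p6, where 11 of the 14 mouse genes had an entry (none for Clps, Ctrc and Try5). Whether they bear on the levels was not tested. The genes shown are the leading amylase, chymotrypsinogen and trypsinogen and both lipases, 5′ to 3′ on the gene's strand. Capitals mark CACCTG (a form of the E-box, either strand), TTTCCC (a form of the TC box, either strand) and TATAAA (sense strand). Other forms were not searched and are not marked, such as the E-box form CAGCTG in the windows of Amy2a5 and Ctrb1.
Amy2a5, chr3:113258700-113258949, minus strand: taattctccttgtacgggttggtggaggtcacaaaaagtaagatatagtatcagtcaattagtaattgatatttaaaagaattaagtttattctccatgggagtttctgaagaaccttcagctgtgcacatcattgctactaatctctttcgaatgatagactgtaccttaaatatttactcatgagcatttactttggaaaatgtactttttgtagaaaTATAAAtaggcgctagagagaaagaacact
Ctrb1, chr8:111691011-111691260, minus strand: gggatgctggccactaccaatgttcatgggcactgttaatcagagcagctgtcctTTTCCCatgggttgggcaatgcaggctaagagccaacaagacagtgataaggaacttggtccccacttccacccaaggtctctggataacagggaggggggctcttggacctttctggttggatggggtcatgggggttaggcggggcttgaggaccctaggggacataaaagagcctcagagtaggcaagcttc
Try4, chr6:41302022-41302271, plus strand: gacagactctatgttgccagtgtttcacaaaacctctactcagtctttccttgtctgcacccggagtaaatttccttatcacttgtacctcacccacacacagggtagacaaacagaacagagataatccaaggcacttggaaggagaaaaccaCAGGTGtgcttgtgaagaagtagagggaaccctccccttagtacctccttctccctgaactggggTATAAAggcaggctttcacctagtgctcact
Cel, chr2:28563404-28563653, minus strand: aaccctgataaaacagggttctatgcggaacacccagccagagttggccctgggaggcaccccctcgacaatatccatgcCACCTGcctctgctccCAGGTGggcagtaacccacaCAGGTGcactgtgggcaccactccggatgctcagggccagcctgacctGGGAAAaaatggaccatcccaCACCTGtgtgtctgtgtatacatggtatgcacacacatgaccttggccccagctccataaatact
Pnlip, chr19:58670115-58670364, plus strand: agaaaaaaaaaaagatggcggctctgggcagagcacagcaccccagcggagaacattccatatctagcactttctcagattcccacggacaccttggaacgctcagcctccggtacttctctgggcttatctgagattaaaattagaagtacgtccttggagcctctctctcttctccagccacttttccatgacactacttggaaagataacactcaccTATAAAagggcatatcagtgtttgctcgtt

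CACCTG was found in 4 of the 11 windows (Cel, Cpb1, Amy2b and Try4) and in 17.1% of 27025 windows of all genes. Cel carried 4 such E-boxes, which began 170, 154, 134 and 65 bases before its start, and 1 TC box 86 bases before it. TTTCCC was found in 3 of 11 windows (Cel, Cpa1 and Ctrb1) and in 21.9% of all. TATAAA was found in 4 of 11 windows (Amy2b, Amy2a5, Try4 and Pnlip), beginning 26 to 31 bases before the start, and in 8.12% of all. The windows of Amy2a2, Amy2a3 and Amy2a4 are the same sequence and hold none of the 3 motifs, so the 11 windows are 9 distinct ones. A match of these letters is a description and not a bound site.

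All 10 rows were present in every mouse, and 3 of them were among the 10 highest rows of the table. AMY2B was 5th by mean TPM, after INS, Ins1, IAPP and Gcg, while CTRB2 was 8th and PRSS3 9th, ahead of the somatostatin gene SST. CLPS, CPB1, PNLIP and CPA1 ranked between 30 and 39, CEL ranked 66, Amy2b 953 and CTRC 7958. The levels differed between mice far more than those of a usual gene, by 6.96- to 10.6-fold from the lowest to the highest mouse against a median of 1.36-fold over 14435 tested genes listed above 0 in all mice.

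Amylase cleaves starch, and AMY2B was the most abundant single row. AMY2B stood at 17696, 2232, 18984 and 6938 scaled TPM in βPrlR+/- mice 1 to 4, and at 6338, 15245 and 7038 in Prlr+/- mice 1 to 3. The row Amy2b, a second pancreatic amylase gene, stood at 96.9, 12.7, 112 and 41.9 in βPrlR+/- mice and at 38.1, 91.2 and 41.7 in Prlr+/- mice. Both rows were high in βPrlR+/- 1, βPrlR+/- 3 and Prlr+/- 2 and lowest in βPrlR+/- 2, and both Prlr+/- ranges lay inside the βPrlR+/- range. AMY2B kept between 166 and 183 times the level of Amy2b in every mouse.

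Serine proteases filled the next rows. CTRB2, a chymotrypsinogen that cuts after aromatic residues, stood at 9636, 1517, 10561 and 4022 scaled TPM in βPrlR+/- mice and at 3675, 8062 and 5653 in Prlr+/- mice. PRSS3, the trypsinogens, stood at 8523, 1350, 9913 and 3896 in βPrlR+/- mice and at 3455, 7846 and 5174 in Prlr+/- mice. These rows were again lowest in βPrlR+/- 2 and overlapped between the groups, and their ratio stayed between 0.884 and 0.973 in all mice. CTRC, whose mouse gene RefSeq lists as a transcribed pseudogene, was the scarcest row. It stood at 10.03, 1.55, 13.2 and 3.91 scaled TPM in βPrlR+/- mice and at 2.69, 9.002 and 5.53 in Prlr+/- mice. Within the PRSS3 row the ratio of Try5 to Try4 ran from 0.574 in Prlr+/- 2 to 0.856 in βPrlR+/- 2, so the mouse with the least trypsinogen had the largest part of Try5.

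The carboxypeptidases trim amino acids from the ends of peptides. CPA1, which prefers hydrophobic ends, stood at 1830, 233, 1605 and 581 scaled TPM in βPrlR+/- mice and at 527, 1381 and 786 in Prlr+/- mice. CPB1, which takes basic ends, stood at 2043, 268, 2227 and 828 in βPrlR+/- mice and at 684, 1860 and 907 in Prlr+/- mice. Both shared their highest 3 mice and their lowest mouse with the amylases, and the groups overlapped.

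Fat digestion was represented by pancreatic lipase, its cofactor colipase and the bile salt-dependent carboxyl ester lipase. PNLIP stood at 1986, 202, 2124 and 642 scaled TPM in βPrlR+/- mice and at 610, 2058 and 937 in Prlr+/- mice. CLPS, the colipase that anchors the lipase to fat droplets, stood at 2525, 290, 2116 and 633 in βPrlR+/- mice and at 661, 1791 and 1133 in Prlr+/- mice. CEL stood at 1076, 102, 995 and 318 in βPrlR+/- mice and at 315, 1015 and 379 in Prlr+/- mice. The highest and lowest mice of CEL and PNLIP were 10.6- and 10.5-fold apart, the widest among the 10 rows, whereas CTRB2 was the narrowest at 6.96-fold.

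**Figure D1:**
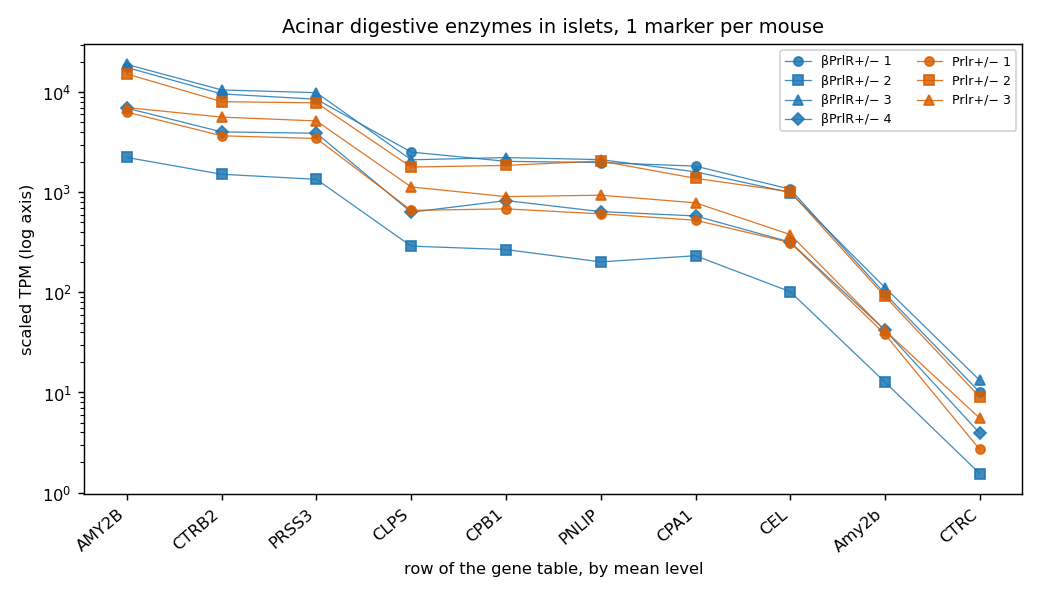
Scaled TPM (log axis) of the 10 enzyme rows, ordered by mean level, with 1 marker and line per mouse (blue, 4 βPrlR+/- mice; orange, 3 Prlr+/- mice). The lines run nearly parallel, βPrlR+/- 2 lies lowest in all 10 rows, and βPrlR+/- 1, βPrlR+/- 3 and Prlr+/- 2 are the highest 3 mice in all 10.

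The order of the mice was nearly the same for every enzyme. βPrlR+/- 2 was lowest in 10 of 10 rows and Prlr+/- 1 second lowest in 9. The top 3 places went to βPrlR+/- 1, βPrlR+/- 3 and Prlr+/- 2 in 10 of 10 rows, with βPrlR+/- 3 first in 7 and βPrlR+/- 1 first in 3. The spread lay inside the groups: from lowest to highest mouse the rows spanned 6.96- to 10.6-fold among the βPrlR+/- mice and 2.19- to 3.37-fold among the Prlr+/- mice. As log2(scaled TPM + 1), the rows had an SD over 7 mice of 0.90 to 1.25, against a median of 0.13 over all 14840 genes tested. Many of the rows that vary still more carry the names of small RNAs. Among the 6162 genes with a mean of at least 10 scaled TPM, which leaves out CTRC, the other 9 rows ranked between 27 and 69 by SD.

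The sum of the 10 rows, called the exocrine share, was 4.29%, 0.663%, 5.39% and 1.91% of TPM for βPrlR+/- mice in the same order, against 1.56%, 3.91% and 1.94% in the Prlr+/- mice. The share thus differed 8.13-fold between βPrlR+/- 2 and βPrlR+/- 3, which belong to the same group. βPrlR+/- mice averaged 3.06% ± 2.16 (SD, n = 4) against 2.47% ± 1.26 (SD, n = 3) for Prlr+/- mice, a difference of -0.589 percentage points that is smaller than either SD. Leaving out βPrlR+/- 3 turned this difference to 0.188 points, and leaving out βPrlR+/- 2 widened it to -1.39 points. Adding 22 other acinar secretory genes raised the share to between 0.949% and 7.91% and kept the order of the mice.

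The make-up of the sum was far steadier than its size. AMY2B made up 31.9% to 39.0% of it, CTRB2 20.5% to 25.6% and PRSS3 18.8% to 23.5%. By class, the 2 amylase rows held 32.1% to 39.3%, the 3 serine protease rows at most 49.1%, the 2 carboxypeptidases 7.43% to 8.53% and the lipases with colipase 8.90% to 12.4%. Prlr+/- 3 stood apart in having the lowest part of amylase, 32.1% against at least 36.2% in the other mice, and the highest part of serine proteases. The group means were 38.4% ± 1.49 (SD, n = 4) and 36.7% ± 4.00 (SD, n = 3) for amylases and 10.4% ± 1.49 and 11.1% ± 1.32 for the lipases, differences within the spread between mice.

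**Figure D2:**
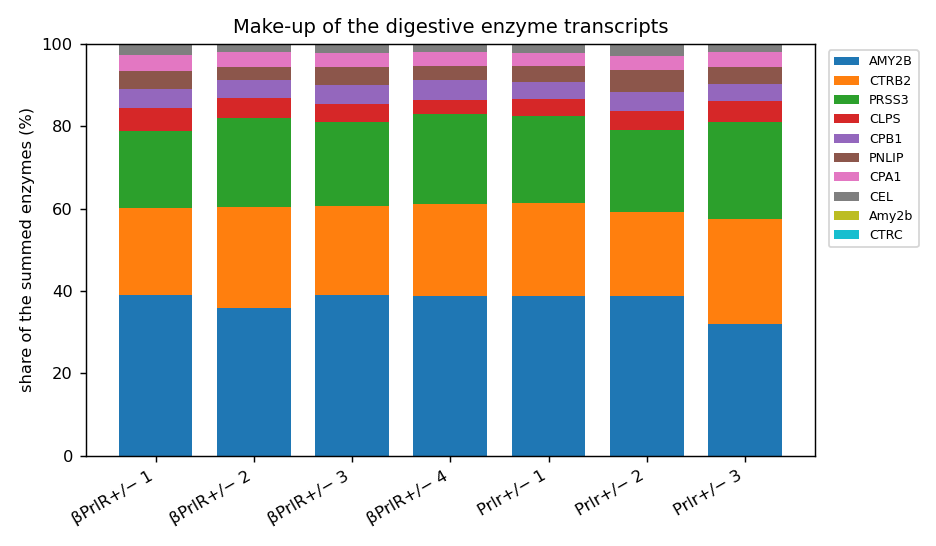
Share of each enzyme row in the sum of the 10 rows (%), 1 bar per mouse. AMY2B, CTRB2 and PRSS3 fill most of each bar, and AMY2B is smallest in Prlr+/- 3 at 31.9%, while the Amy2b and CTRC parts are too thin to see.

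Measured against the mean log2 level of the 10 rows, the ratio of a single row to that mean had an SD over mice of 0.07 (CPB1) to 0.21 (CTRC), with a median of 0.15, where the levels themselves, on log2 without the pseudocount of 1, had SDs of 0.98 to 1.26. Over the 45 pairs of rows r ran from 0.962 to 0.999 across 7 mice, a description of rows that share libraries. The parallel was not exact. The slope of log2 level on that mean was 1.13 for CEL and 1.14 for PNLIP but 0.89 for CTRB2 and 0.90 for PRSS3. CEL and PNLIP thus spread somewhat more between mice than CTRB2 and PRSS3. Outside the 10 rows this did not follow enzyme class. The lipase-related rows PNLIPRP1 and PNLIPRP2 had slopes of 0.92 and 0.93, and the elastase row CELA2A had 1.11. CTRB2 over CEL was 8.95, 14.9, 10.6 and 12.6 in βPrlR+/- mice and 11.7, 7.94 and 14.9 in Prlr+/- mice. PNLIP over CLPS ran from 0.696 in βPrlR+/- 2 to 1.15 in Prlr+/- 2. The 8 ratios compared between the groups gave two-sided exact permutation p from 0.286 to 0.971, where the smallest p that 35 splits allow is 0.0286.

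The insulin genes INS (mouse Ins2) and Ins1 took 52.7%, 53.2%, 46.1% and 53.1% of TPM in βPrlR+/- mice and 56.6%, 54.0% and 58.9% in Prlr+/- mice. All 3 Prlr+/- mice lay above all 4 βPrlR+/- mice, with means of 51.3% ± 3.45 (SD, n = 4) and 56.5% ± 2.47 (SD, n = 3). The highest exocrine share and the lowest insulin share fell in the same mouse, βPrlR+/- 3. Across 7 mice the exocrine and insulin shares had r = -0.67 and rho = -0.54, given as a description, since both are parts of 1 total and the same libraries. Without βPrlR+/- 1 and βPrlR+/- 3, the mice farthest from the median exocrine share, r was -0.02 and rho 0.30 (n = 5), and without βPrlR+/- 3 alone r was -0.29 and rho -0.26 (n = 6). Without βPrlR+/- 1 alone r was -0.68, so the relation rests mainly on βPrlR+/- 3. Neither group holds enough mice for a correlation of its own.

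Taking the enzymes out of the total weakened the relation. With the enzymes taken out of the total, the insulin share rose by 0.355 percentage points in βPrlR+/- 2 and by 2.63 in βPrlR+/- 3. It then stood at 55.0%, 53.5%, 48.7% and 54.1% in βPrlR+/- mice and at 57.5%, 56.2% and 60.1% in Prlr+/- mice, and its r with the exocrine share was -0.50, with rho -0.18. The groups still did not overlap, with means of 52.9% ± 2.82 and 57.9% ± 1.98. On the scaled values, INS had r = -0.12 and Ins1 r = -0.16 with the mean of the enzymes, and the ranges of both genes overlapped between the groups. INS ran from 314706 to 424672 scaled TPM in βPrlR+/- mice, and from 410030 to 512365 in Prlr+/- mice (log2 fold change 0.30, limma adjusted p = 0.9999). Its limma SE of 0.96 is drawn up by the trend fitted over all genes, while the spread of INS between mice alone gives an SE of 0.13, and its two-sided exact permutation p was 0.0857. As shares of TPM, the enzymes varied 8.13-fold between mice while insulin varied 1.28-fold.

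**Figure D3:**
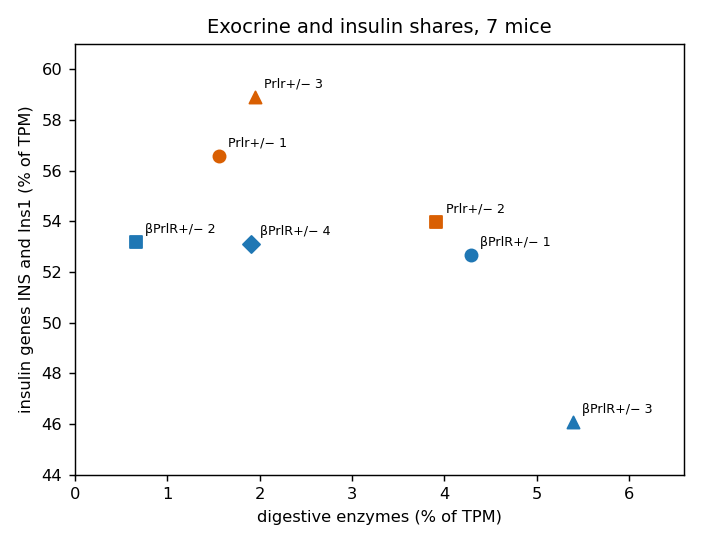
Insulin share (INS and Ins1, % of TPM) against exocrine share (10 enzyme rows, % of TPM), 1 marker per mouse (blue, βPrlR+/-; orange, Prlr+/-). βPrlR+/- 3 holds the highest exocrine share, 5.39%, and the lowest insulin share, 46.1%, while βPrlR+/- 2, with 0.663%, has an insulin share of 53.2%.

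No enzyme passed the test between the groups. In the limma fit over 14840 genes, 0 of the 10 rows passed at an adjusted p of 0.05, where 0.0674% of all tested genes did (10 genes). At an unadjusted p of 0.05, 0 of 10 rows passed, against 4.52% of all genes, and 0 of 10 rows had groups that do not overlap, against 4.95%. Log2 fold changes of Prlr+/- over βPrlR+/- ran from -0.10 (CTRC, SE 0.62) to 0.29 (PNLIP, SE 0.86), with 9 values above 0, 1 below, and a median of 0.11 beside 0.0042 for all tested genes. The arithmetic means of scaled TPM ran the other way, being lower in Prlr+/- mice in all 10 rows, as for AMY2B with 11463 ± 8187 (SD, n = 4) in βPrlR+/- and 9540 ± 4953 (SD, n = 3) in Prlr+/- mice, so the direction depends on the scale of the mean. Every adjusted p was 0.9999 (limma with Benjamini-Hochberg adjustment), and the two-sided exact permutation p of the single rows lay between 0.714 and 0.914.

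The size of a difference that these mice would leave unseen is large. For AMY2B the log2 fold change was 0.05 (SE 0.77), with a 95% interval from -1.75 to 1.86, and for CTRB2 it was 0.14 (SE 0.69), from -1.46 to 1.75. PNLIP had the interval reaching highest, from -1.71 to 2.30. The SEs of the 10 rows were 0.62 to 0.86, where the median over all tested genes was 0.10, so the data neither show a difference nor bound it closely. Direction also turned on single mice: the median log2 fold change of the 10 rows was -0.51 without βPrlR+/- 2, 0.49 without βPrlR+/- 3, -0.30 without Prlr+/- 2 and -0.0099 without βPrlR+/- 4. With TPM as deposited, a scaling that moved the median of all genes by -0.12, it was -0.03.

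**Figure D4:**
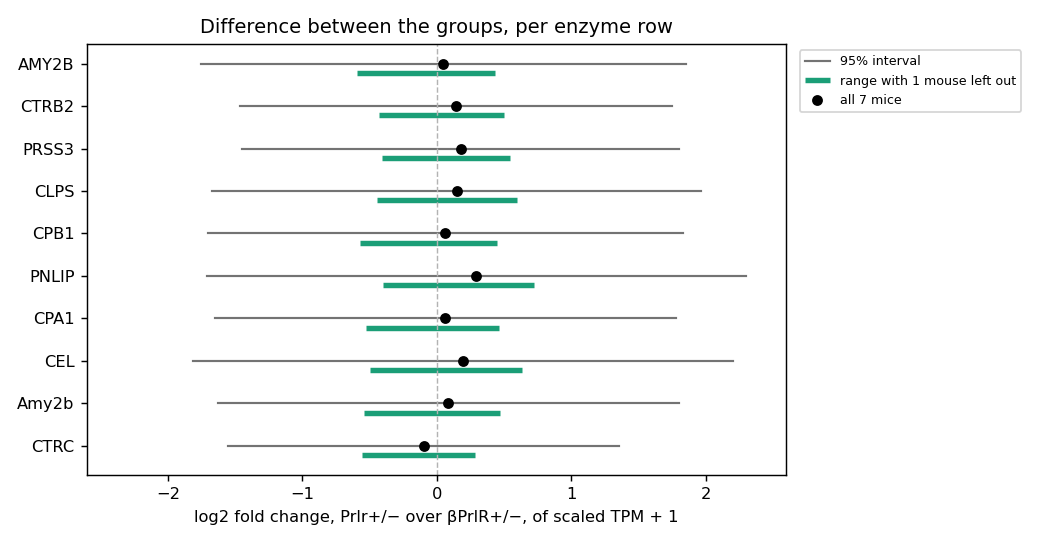
Log2 fold change of Prlr+/- over βPrlR+/- mice in scaled TPM + 1 for each enzyme row (black point, all 7 mice), with its 95% interval from limma (grey line) and the range of the value when 1 mouse is left out (green bar). Every interval and every green bar crosses 0.

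Genes of the acinar secretory programme outside the 10 rows went with them. Of 22 such rows 21 were tested, and 17 had log2 fold changes above 0 and 4 below, with 0 called and 0 at an unadjusted p of 0.05 by limma. Their median log2 fold change was 0.10, although 19 of the 21 had a lower arithmetic mean in Prlr+/- mice, and 20 of the 21 were lowest in βPrlR+/- 2. The elastase row CELA2A spanned 10.4-fold, from 511 scaled TPM in βPrlR+/- 2 to 5298 in βPrlR+/- 1, and PRSS2, a trypsinogen, spanned 8.19-fold, from 547 to 4480. A few departed from the common spread. GP2, the zymogen granule membrane glycoprotein, spanned 5.74-fold with a slope of 0.69 on the enzymes' mean, the row AMY2A (mouse Amy1, the amylase also made in salivary gland and liver) 4.61-fold with a slope of 0.56, and DNASE1 1.92-fold with a slope of 0.17.

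The 10 genes most like the enzymes across 7 mice, by r with their mean log2 level, had r between 0.996 and 0.999 and included CELA2A, PRSS2, RNASE1, CELA1, CTRL, REG1A, 2210010C04Rik, ERP27 and PDIA2. In all, 49 of 14830 other tested genes (0.330%) had r of at least 0.95, and 18 of the 21 acinar secretory genes were among them. The first principal component of all tested genes held 24.7% of the variance and had an r of 0.72 in size with the enzymes' mean, and the third held 17.2% with 0.53. With the enzymes' mean as a covariate, 6 genes were called between the groups in place of 10, and 5 were shared.

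The transcription factors that bind as PTF1 were scarce. RBPJL, the acinar partner in PTF1, stood at 2.93, 0.247, 3.47 and 0.980 scaled TPM in βPrlR+/- mice and at 0.859, 4.21 and 1.18 in Prlr+/- mice, an order close to that of the enzymes (r = 0.96). PTF1A itself lay between 0.038 and 1.03 and was under the level tested. BHLHA15 (MIST1), which organises the secretory cell, varied only from 15.4 to 29.1 with r = 0.43. NR5A2 had r = 0.93 and MECOM r = 0.22, both under 1 scaled TPM in every mouse. Of the 4 factors tested 0 were called, and 3 had log2 fold changes above 0 and 1 (MECOM) below. The groups did not overlap for MECOM, as for 4.95% of all tested genes.

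The Reg genes encode secreted lectins of the acinar cell that rise in pancreatic injury. REG1A (mouse Reg1) stood at 1648, 237, 1604 and 591 scaled TPM in βPrlR+/- mice and at 535, 1317 and 698 in Prlr+/- mice, and tracked the enzymes with r = 0.998. REG3A (mouse Reg3b) and REG3G did so less, with r of 0.67 and 0.08, and were highest in βPrlR+/- 4 at 225 and 9.10 scaled TPM, a mouse with an exocrine share of 1.91%. REG4 was listed at 0 in all mice. Of 6 Reg rows tested 0 were called, 4 had values above 0 and 2 below.

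Markers of other cell types around islets moved with the enzymes only in part. Of the 12 duct genes 9 were tested and 0 called, and their sum ran from 374 to 442 scaled TPM in βPrlR+/- mice and from 364 to 468 in Prlr+/- mice. Within that list TFF2, a secreted trefoil peptide, ran from 15.5 in βPrlR+/- 2 to 142 in βPrlR+/- 1 (r = 0.97), whereas the keratin KRT7 had r = -0.75, and the defining duct genes CFTR (0.023 to 0.073) and SOX9 (0.092 to 0.252) were near 0. The 7 tested fibroblast and stellate genes, of 9 listed, had r from 0.35 to 0.93, with COL1A1 highest, and sums from 47.8 to 68.4 and from 36.2 to 58.2, with 0 called. The 8 endothelial genes had lower values in Prlr+/- mice in 8 of 8, by a median log2 fold change of -0.22, with 5 of 8 at an unadjusted p of 0.05 (4.52% of all tested genes were) and 0 called, and their r with the enzymes lay between -0.36 and 0.58. Their sums were 171 to 206 and 144 to 177. The 6 tested leukocyte genes, of 7 found, had r from -0.78 (CD79A) to 0.79, with a median of 0.65. CD79A was the only tested one with r below 0, and it made up the largest part of the sums. These ran from 19.4 to 28.4 and from 23.2 to 28.5. All 6 had log2 fold changes above 0, although 2 had a lower arithmetic mean in Prlr+/- mice, and 0 were called. The part of these cells in the enzyme levels was not tested.

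**Figure D5:**
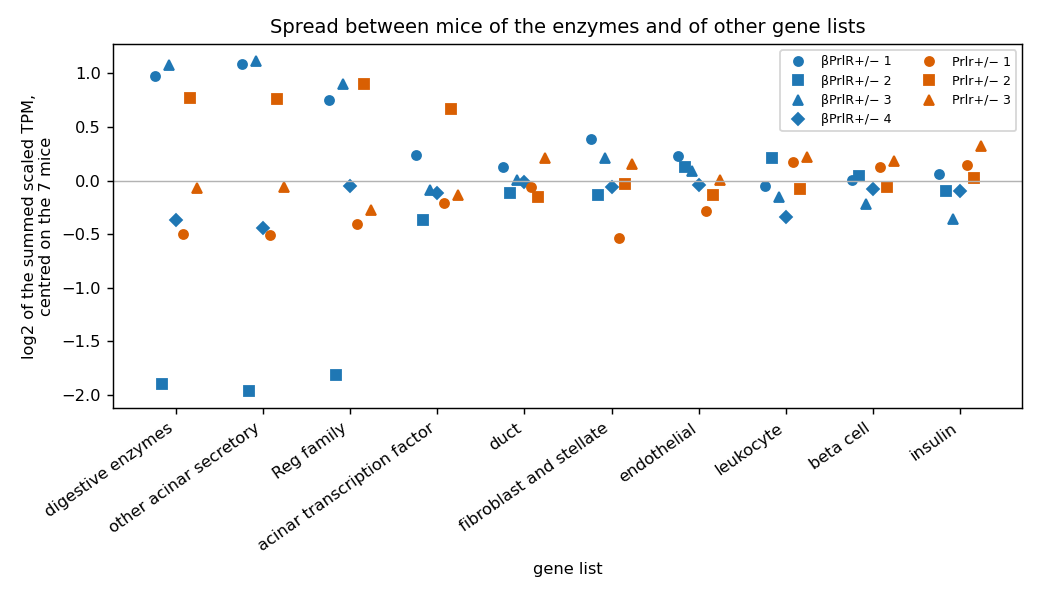
Summed scaled TPM of each gene list per mouse, as log2 centred on the mean of the 7 mice (blue, βPrlR+/-; orange, Prlr+/-). The enzymes, the other acinar secretory genes and the Reg family share a spread of about the same width with βPrlR+/- 2 far below the rest, while duct, stromal, endothelial, leukocyte, beta cell and insulin sums lie closer to 0.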

How the data were processed

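Islet RNA of 7 mice (4 βPrlR+/-, 3 Prlr+/-), separate animals with 1 library each, was quantified by the authors with kallisto 0.42.4 against RefSeq transcripts, per the study's methods and the submitters' processing notes. The genome build and the strand setting are not given in the sources used here. The deposited gene and transcript tables are called FPKM, but each column sums to 1000000, so the values were handled as TPM, as deposited by the authors. TPM does not carry the reads of a gene.

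A size factor per mouse (median of ratios) scaled TPM. Of 34082 genes, the 14840 whose mean TPM reached 0.5 entered a limma 3.58.1 fit (trend, no covariates, R 4.3.3) of log2(scaled TPM + 1), and p-values were adjusted by Benjamini-Hochberg over all tested genes. Fold changes on that scale understate those of low genes. For single rows and ratios of rows an exact permutation test, two-sided, ran over all 35 splits, and p-values measure the spread between mice. Shares of TPM, their correlations and gene lists were not tested between groups, and Dixon's test looked for a mouse far from its group. Transcripts were named by the RefSeq and GENCODE tables (16 of 16 matched).

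The text names the enzymes, the genes of the acinar, Reg, duct and insulin lists, PRLR, the leading gene of a list and the 10 genes most like the enzymes, of which 1 is not reported here. COL1A1, NKX6-1, PCSK2 and SST were named after their values were seen. The members and lists were chosen with earlier results of these data known. Alternatives were other scalings, pseudocount, filter, a robust fit, a covariate and leaving out each mouse. The fit was also run on simulated data, and the outcome of that run is not reported here. Files of single mice were not used.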

Additional observations from a re-analysis of the deposited data

Results flagged for a closer look

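Of 59 sets of values checked for a mouse far from the others of its group, 1 stood out, where chance alone gives about 1 in 20. The insulin share of βPrlR+/- 3 was 46.1%, below 52.7% to 53.2% in the other βPrlR+/- mice, and its gap to the nearest was 0.927 of the whole range of the group, past the 95% critical value of Dixon's test for 4 mice. The same mouse had the highest exocrine share, 5.39%, and whether that bears on its insulin share was not tested. No enzyme row stood out in this way, and the Prlr+/- group is too small for the check.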

How the results depend on the processing

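No enzyme row was called under other scalings, pseudocount, filter, a robust fit or with a mouse left out (the covariate fit was not read for them), and the lowest adjusted p over these was 0.855 (limma). With TPM as deposited the log2 fold change turned to -0.096 for AMY2B, -0.055 for Amy2b, -0.082 for CPA1, -0.0815 for CPB1 and -0.0033 for CTRB2, the median of the 10 rows to -0.029 and that of the other acinar secretory genes to -0.032. Upper-quartile scaling, a size factor without enzymes and insulin, a pseudocount of 0.1, all genes above 0 and a robust fit kept the sign of every row. Dropping the size factor moves a row by about the difference of its mean log2 between the groups, -0.15. Leaving out 1 mouse in turn gave medians from -0.51 (without βPrlR+/- 2) to 0.49 (without βPrlR+/- 3) for the 10 rows and from -0.52 to 0.48, without the same mice, for the other acinar genes. Single rows ran from -0.59 to 0.43 (AMY2B), -0.54 to 0.47 (Amy2b), -0.50 to 0.63 (CEL), -0.44 to 0.59 (CLPS), -0.52 to 0.46 (CPA1), -0.57 to 0.45 (CPB1), -0.43 to 0.50 (CTRB2), -0.56 to 0.28 (CTRC), -0.40 to 0.73 (PNLIP) and -0.41 to 0.55 (PRSS3).

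Genes called between the groups numbered 10, and 18 with a pseudocount of 0.1, 4 among all 27935 genes above 0, 6 with the enzymes' mean as covariate, and 2 (without βPrlR+/- 4) to 13 (without βPrlR+/- 3) with a mouse left out. The difference in exocrine share ran from -1.39 to 0.188 points with a mouse left out. Its r with the insulin share was -0.47 on the log2 of the exocrine share and ran from -0.82 (without βPrlR+/- 2) to -0.29 (without βPrlR+/- 3). The median SD of the ratios, 0.15, ran from 0.14 to 0.16, a check added after seeing the data. No paired analysis was possible because the mouse numbers are animal names that the groups do not share. The reads behind each value are not in TPM, which limits CTRC, PTF1A and other rows near 1 TPM most.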

Other observations

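Some genes that are not digestive enzymes ranked among the 30 genes most like them across 7 mice; those named here were chosen after their values were seen. GGT1, a gamma-glutamyltransferase, had r = 0.996 with the enzymes' mean log2 level at a mean of 2.32 scaled TPM and an 8.06-fold range. The zinc transporter SLC39A5 had r = 0.988 with a 6.78-fold range, and the pancreatic aquaporin row AQP12A/AQP12B r = 0.987 with a 12.0-fold range. Hamp/Hamp2, which encodes the iron hormone hepcidin, had r = 0.981 with an 18.9-fold range at a mean of 2.83 scaled TPM. Others had as high an r over a much smaller range, such as TMEM97 (r = 0.985, 1.81-fold) and the potassium channel gene KCNB2 (r = 0.987, 1.32-fold).

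Beta cell genes went both ways beside the enzymes. NKX6-1 had r = 0.80 and ran from 98.2 scaled TPM in βPrlR+/- 2 to 232 in Prlr+/- 2, while IAPP had r = -0.56 and ran from 33259 in βPrlR+/- 3 to 44825 in Prlr+/- 3. Of 12 beta cell genes 10 had higher and 2 lower values in Prlr+/- mice. The median log2 fold change was 0.29, and limma called 0 (1 of 12 at an unadjusted p of 0.05, where 4.52% of all tested genes were). All 7 alpha cell genes had log2 fold changes below 0, with a median of -0.22, though PCSK2 had nearly equal means (806 and 808 scaled TPM), and limma called 0 (2 of 7 at an unadjusted p of 0.05, against the same 4.52%).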
